A study of Mus musculus with 12 samples.

Results

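The mouse genes whose array names begin with Zfp and a digit were followed across wild-type, Rex1+/- and Rex1-/- ES cells. Every gene probe with such a name was taken, except those of Zfp42, the gene that encodes Rex1 and was itself targeted. This gave 43 genes read by 56 probes, of 7182 gene names and 20281 gene probes on the array. The choice used names alone and no measured value. Single probes served 33 of the genes, 7 genes had 2 probes and 3 genes had 3.

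The wild-type line was EB5. RKPG9 is a Rex1+/- line in which the start of the Rex1 open reading frame was replaced by pacEGFP, a fusion of a puromycin resistance gene and a green fluorescent protein gene. HP3 and HP4 are Rex1-/- lines. Rex1-/- cells were made in the study by gene conversion in RKPG9 or with a second knockout vector, and which route gave HP3 and HP4 was not given in the sources used here. Each line is 1 clone and was hybridised on 3 arrays, 12 in all. The line's RNA was in Cy3 on every array, and a universal mouse reference, RNA pooled from cultured cell lines, was in Cy5. Whether the 3 arrays of a clone stand for 3 cultures was not stated, so the p-values measure the spread between these arrays, which may be technical. All levels below are log2 ratios of Cy3 over Cy5, written as the line over the reference. The dyes were not swapped, so such a ratio holds any dye bias, and ratios of different probes were not ranked as amounts of RNA.

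Zfp is a naming series and not a single protein family. Most of the proteins bind DNA through tandem C2H2 fingers, in which a zinc ion is held by a pair of cysteines and a pair of histidines. Many of these carry a KRAB domain, which recruits Trim28 and, through it, the H3K9 methyltransferase Setdb1, HP1 proteins and DNA methylation, and is known in ES cells for silencing retroelements and for keeping imprints. Other Zfp names were given to proteins with BTB, MYM-type, RING, AN1, LIM or CCCH domains, and 13 of the 43 genes have since been renamed. Among these are Zfp103, now Rnf103, Zfp162, now Sf1, Zfp198, now Zmym2, Zfp238, now Zbtb18, Zfp278, now Patz1, and Zfp288, now Zbtb20. Rex1 is a C2H2 protein that resembles Yy1.

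Of the 56 probes, 51 were well above background in Cy3 on all 12 arrays and none were below it on every array, which covered 41 of the 43 genes. Zfp110, a KRAB gene, was above background on 2 EB5 arrays and 1 HP3 array and on no array of RKPG9 or HP4, so it has only a bound in those lines. The other gene without a probe above background throughout was Zfp46, which missed 1 EB5 array and 1 HP4 array. Over all gene probes, the share well above background in Cy3 was 92.2 to 94.5% on the EB5 arrays, 89.3 to 89.9% in RKPG9, 87.1 to 89.4% in HP3 and 85.3 to 86.1% in HP4. No Zfp spot was saturated, and 5 Zfp spots were left out as outliers, 4 of them at Zfp296. The EB5 arrays were extracted from their scans in a separate session with other background settings, so line and session cannot be told apart in any comparison with EB5, whereas RKPG9, HP3 and HP4 shared a session.

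The ES cell identity of the lines was checked first. Of 10 ES cell markers listed, 8 were measured, and all 8 were well above background on every array. Marker genes, and the KRAB partners below, were each read only at the probe with the highest mean Cy3 signal. In the order EB5, RKPG9, HP3, HP4, Pou5f1 read 4.12, 4.43, 4.42 and 4.12, and Nanog read 2.07, 2.45, 2.43 and 2.20. Both Zfp42 probes stayed near 6 in EB5, RKPG9 and HP3 and were lower in HP4. In the same order, probe A_65_P04537 read 5.97 ± 0.015, 6.02 ± 0.023, 5.99 ± 0.11 and 5.44 ± 0.21 (SD, n = 3 arrays each). In the paper, a Northern blot of Rex1-/- cells still showed larger RNA of truncated Rex1 joined to pacEGFP, while a Western blot showed no Rex1 protein band. Where the sequence of A_65_P04537 lies relative to the replaced part of the gene was not given in the sources used here, so it checks no label. Its raw Cy3 signal ran from 3117 to 4383 in HP4 and from 19470 to 20060 in RKPG9. The HP4 fall was read under the main setting alone, and its dependence on the processing was not tested.

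Against the reference, the Zfp genes were a middling set with a single strong exception. The mean log2 ratio over the 4 lines was above 0 at 28 probes and below 0 at 28, with a median of -0.008 beside -0.02 over all probes. It passed 1 at 2 Zfp probes, against 6.3% of all probes, and lay below -1 at 4, against 6.29%. The exception was Zfp296, an ES cell C2H2 gene with a role in reprogramming. It read 3.05, 3.06 and 3.25 in RKPG9, 3.04 and 3.20 in HP3, 2.95 and 2.73 in HP4, and 2.62 on the only usable EB5 array. Every usable array of every line thus read far above the reference, with EB5 lowest.

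The next genes in order were Zfp292, a large C2H2 gene, with means of 0.94, 1.17, 1.31 and 1.11 for EB5, RKPG9, HP3 and HP4 at A_65_P09015, and Zfp278 (Patz1), a BTB gene, with 0.84 to 0.92 at A_65_P08134. Zfp162 (Sf1), the splicing factor that binds the branch point, came next with 0.76 to 0.96. Zfp198 (Zmym2), an MYM-type gene, Zfp318, Zfp239 and Zfp263, a KRAB and SCAN gene, followed with means over the 4 lines of 0.63, 0.60, 0.54 and 0.47 at their highest probes. The 4 line means of Zfp278 at A_65_P08134 spanned 0.08, and no comparison passed the test there. Its second probe, A_65_P18556, read lower in EB5 (0.59 ± 0.081) than in RKPG9 (0.84 ± 0.041).

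At the low end, among genes above background on all arrays, stood Zfp68, a KRAB gene, at -1.40, -1.50, -1.26 and -1.21 in EB5, RKPG9, HP3 and HP4 at A_65_P04319. Zfp103 (Rnf103), a RING ubiquitin ligase of the endoplasmic reticulum, read -0.72, -1.08, -1.16 and -1.22, and Zfp36, the CCCH protein tristetraprolin that speeds decay of AU-rich messengers, read -0.83, -1.17, -0.96 and -0.91. Zfp288 at A_65_P03464, with a mean of -1.04, was above background on 2 of the 3 HP4 arrays and is left out of this order. Zfp239 appears at both ends of the order, since the line means of A_65_P11439 ran from -1.21 to -0.80 and those of A_65_P19173 from 0.42 to 0.69. Probes of a gene therefore did not read the same quantity, and the order of neighbours in it is not resolved where their SDs overlap.

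**Figure D1:**
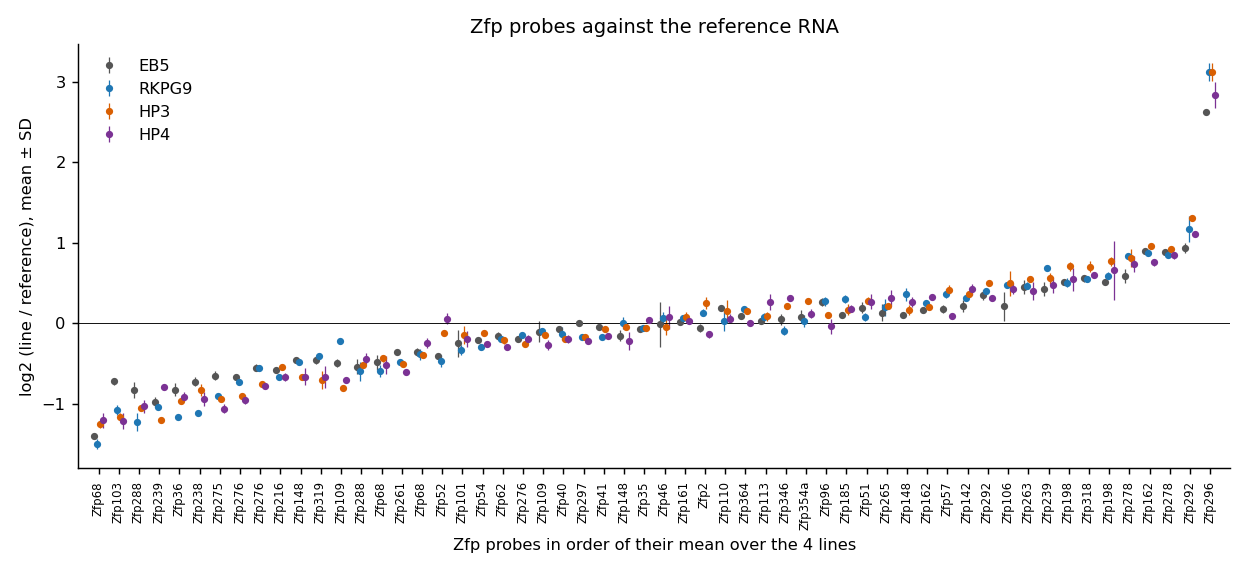
Mean log2 ratio of each line over the reference for the 56 Zfp probes, ordered by their mean over the 4 lines and labelled with the gene name in the files. Points are line means and bars the SD over usable arrays (3 at most, and 1 for Zfp296 in EB5, which has no bar); Zfp296 stands alone near 3, and the line means of all other probes lie between -1.50 and 1.31.

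Between the lines, many Zfp probes moved and none moved far. No Zfp probe passed adjusted p under 0.05 together with a 2-fold change in any of the 6 comparisons by limma, and the changes ran from -0.58 to 0.52 on the log2 scale. At unadjusted p under 0.05 the counts were 29 in HP3 against RKPG9, 34 in HP4 against RKPG9, 27 in HP4 against HP3, 32 in HP3 against EB5, 33 in HP4 against EB5 and 26 in RKPG9 against EB5. Of all probes, in the same order, 32.3%, 47.9%, 40%, 41.1%, 52.4% and 42.6% were under that level. Of all probes, 0.281% passed both thresholds in HP3 against RKPG9 and 0.38% in HP4 against RKPG9. The share was 0.0247% in HP4 against HP3, 0.217% in HP3 against EB5, 0.291% in HP4 against EB5 and 0.524% in RKPG9 against EB5. Only 2 alternative settings took a Zfp probe past both. With an offset of 0, Zfp288 at A_65_P03464 read -1.26 in HP4 against EB5, and with median centring Zfp103 read -1.02 in the same comparison.

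**Figure D2:**
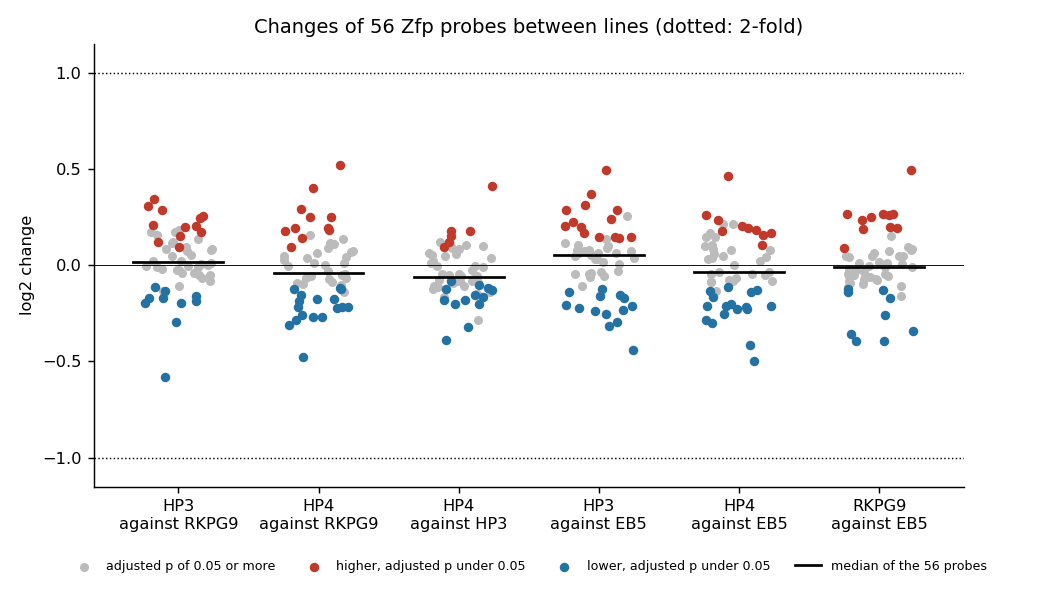
Log2 change of each of the 56 Zfp probes in the 6 comparisons between lines, with points coloured by the limma call at adjusted p under 0.05 and spread sideways only for legibility. Black bars are medians over the 56 probes, and the dotted lines mark a 2-fold change, which no point reaches.

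The comparison of HP3 with RKPG9 sets a Rex1-/- line beside the Rex1+/- line. In HP3, 12 Zfp probes were higher and 10 lower at adjusted p under 0.05. Over all probes 12.6% were higher and 10.1% lower, against 21.4% and 17.9% of the Zfp probes. The all-probe shares, here and in the other comparisons, also cover probes not matched to a RefSeq gene with a chromosome. Of the matched probes (8451 of 20281), 13.8 to 20.3% were higher and 8.88 to 16.1% lower by chromosome, leaving out chromosome 8. The median change was 0.017 over the Zfp probes and 0.003 over all probes. The higher probes belonged to 12 genes and the lower to 7. Among probes that passed and whose arrays did not overlap, those of Zfp52, Zfp346, Zfp238 and Zfp354a rose most, and those of Zfp109, Zfp319, Zfp276 and Zfp148 fell most. With Cy3 alone in place of the ratio, 1 was higher and 2 were lower, beside 4.94% and 4.25% of all probes, and of these 8 only Zfp52 and Zfp109 passed.

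In HP4 against RKPG9, 11 Zfp probes were higher and 18 lower, of 10 and 15 genes. Over all probes 20.9% were higher and 19.1% lower, and of the Zfp probes 19.6% and 32.1%. Of probes matched to RefSeq, 19.4 to 34.9% were higher and 15.6 to 28% lower by chromosome, leaving out chromosome 8. The median change was -0.038 for the Zfp probes beside 0.009 for all. By the same measure Zfp52, Zfp346, Zfp68 and Zfp36 rose most, and Zfp109, Zfp96, Zfp296 and Zfp57 fell most, again among probes that passed. With Cy3 alone Zfp346, Zfp68, Zfp36 and Zfp96 did not pass. HP3 and HP4 were compared with the same RKPG9 arrays, so the values below are given side by side and their likeness is not a second test. In both lines 6 probes of 6 genes were higher than RKPG9 (Zfp52, Zfp346, Zfp238, Zfp36, Zfp51 and Zfp68) and 7 probes of 6 genes were lower (Zfp109, Zfp148, Zfp185, Zfp319, Zfp96 and a pair of Zfp276 probes). Over all probes, 8.32% were higher in both lines and 7.76% lower, against 10.7% and 12.5% of the Zfp probes.

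Zfp52, a KRAB gene of chromosome 17, had the largest rise. EB5 arrays read -0.42, -0.37 and -0.44, and RKPG9 arrays -0.52, -0.38 and -0.49. HP3 read -0.16, -0.077 and -0.13, and HP4 read -0.004, 0.13 and 0.041. No HP3 array overlapped EB5 or RKPG9, and no HP4 array overlapped HP3. The change against RKPG9 was 0.34 ± 0.046 in HP3 (SE, limma adjusted p = 0.00019) and 0.52 ± 0.046 in HP4 (adjusted p = 4.8e-06), a fold of 1.27 and 1.44. Against EB5 it was 0.29 in HP3 (adjusted p = 0.00073) and 0.46 in HP4 (adjusted p = 1.7e-05), but with median centring these were 0.11 (adjusted p = 0.17) and 0.05 (adjusted p = 0.44) and did not pass. RKPG9 and EB5 differed by -0.058 ± 0.046, which did not pass (adjusted p = 0.38). HP4 was above HP3 by 0.18 (adjusted p = 0.015), but this last step turned to -0.057 with median centring, and missed the threshold without HP3 array 1 (0.16, adjusted p = 0.051) or HP4 array 2 (0.14, adjusted p = 0.056).

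Zfp52 lies in a run of KRAB genes on chromosome 17, and its neighbours were looked at beside it. In RefSeq's GRCm38.p6 order, Zfp54 is next to Zfp51, and 3 genes separate Zfp51 from Zfp52. Zfp51 read 0.033, 0.13 and 0.060 on the RKPG9 arrays, 0.25, 0.33 and 0.27 on those of HP3, and 0.17, 0.34 and 0.30 on those of HP4. It was higher in HP3 by 0.20 (adjusted p = 0.013) and in HP4 by 0.19 (adjusted p = 0.011). Zfp54 was higher in HP3 by 0.17 (adjusted p = 0.0023), and in HP4 its difference of 0.04 did not pass (adjusted p = 0.36). All 3 were thus above RKPG9 in HP3, with no array overlapping. Neither Zfp51 nor Zfp54 passed against EB5. Of the 9 Zfp genes on chromosome 17, 4 were higher and none lower in HP3 against RKPG9, and 2 were higher and 1 lower in HP4. Over all probes of that chromosome, 19.8% were higher and 8.88% lower in HP3, and 28.7% and 18.3% in HP4. These genes are close paralogs and the probe sequences were not used here, so signal shared between them cannot be told apart.

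Zfp346, whose protein binds double-stranded RNA, also rose in both Rex1-/- lines. It read -0.15, -0.064 and -0.060 on the RKPG9 arrays, 0.24, 0.22 and 0.20 on those of HP3, and 0.31, 0.35 and 0.27 on those of HP4, with EB5 between at -0.029, 0.078 and 0.098. The change was 0.31 ± 0.042 in HP3 (adjusted p = 0.00019) and 0.40 ± 0.042 in HP4 (adjusted p = 1.7e-05). RKPG9 was itself below EB5 by 0.14 (adjusted p = 0.022), so the rise over EB5 was smaller, 0.17 in HP3 and 0.26 in HP4. The HP4 values depended on the scaling, since median centring gave -0.035 against RKPG9 and -0.22 against EB5.

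Zfp68 at A_65_P04319 rose from -1.53, -1.55 and -1.43 in RKPG9 to -1.21, -1.29 and -1.27 in HP3 and -1.31, -1.19 and -1.12 in HP4. The change was 0.24 in HP3 (adjusted p = 0.0034) and 0.29 in HP4 (adjusted p = 0.00061), and both lines also passed against EB5. In HP4 it turned to -0.062 with an offset of 0, which acts most on dim spots. Its other probes read otherwise. A_65_P12223 was higher in HP4 by 0.14 and did not pass in HP3, and A_65_P02806, above background on 1 HP4 array of 3, passed nowhere.

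The genes that fell in both Rex1-/- lines were led by Zfp109, a KRAB gene. At A_65_P14165 it read -0.24, -0.21 and -0.24 on the RKPG9 arrays, -0.83, -0.81 and -0.79 on those of HP3, and -0.68 and -0.73 on the 2 usable HP4 arrays. EB5 stood between at -0.55, -0.46 and -0.47, and no arrays of different lines overlapped. The change against RKPG9 was -0.58 ± 0.035 in HP3 (adjusted p = 7.6e-07) and -0.48 ± 0.039 in HP4 (adjusted p = 5e-06). Against EB5 it was -0.32 in HP3 and -0.21 in HP4, while RKPG9 was above EB5 by 0.27 (adjusted p = 0.00017). With Cy3 alone the HP3 difference from EB5 was -0.055 and did not pass. The second probe of the gene, A_65_P10206, read otherwise. It did not pass in HP3 (-0.053, adjusted p = 0.6), and in HP4 it was not well above background on any array, which allows only that RKPG9 was at least 1.13-fold higher (adjusted p = 0.033). The description in the files calls this gene Zfp94, so its identity is uncertain.

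Zfp96 (Zscan12), a SCAN domain gene, was level in the lines that kept a wild-type allele, at 0.26 ± 0.052 for EB5 and 0.27 ± 0.058 for RKPG9. HP3 arrays read 0.091, 0.11 and 0.11, and HP4 arrays 0.055, -0.13 and -0.036. Each HP3 and HP4 array lay below each EB5 and RKPG9 array. The fall against RKPG9 was -0.17 in HP3 (adjusted p = 0.029) and -0.31 in HP4 (adjusted p = 0.00042). The HP4 fall did not pass with median centring (-0.064, adjusted p = 0.32) or Cy3 alone (-0.17, adjusted p = 0.14). Zfp148 (ZBP-89), which binds GC-rich promoters, changed at A_65_P10512 by -0.18 and -0.19 in the same lines. Its other probes each passed in a single line, A_65_P10364 in HP3 (-0.20, or -0.16 and adjusted p = 0.051 without RKPG9 array 3) and A_65_P01108 in HP4 (-0.22). Against EB5 the probes of Zfp148 went opposite ways in HP4, since A_65_P10512 was lower (-0.21, adjusted p = 0.0037) and A_65_P10364 higher (0.17, adjusted p = 0.015). Zfp185, a LIM domain gene, fell by 0.14 and by 0.12.

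**Figure D3:**
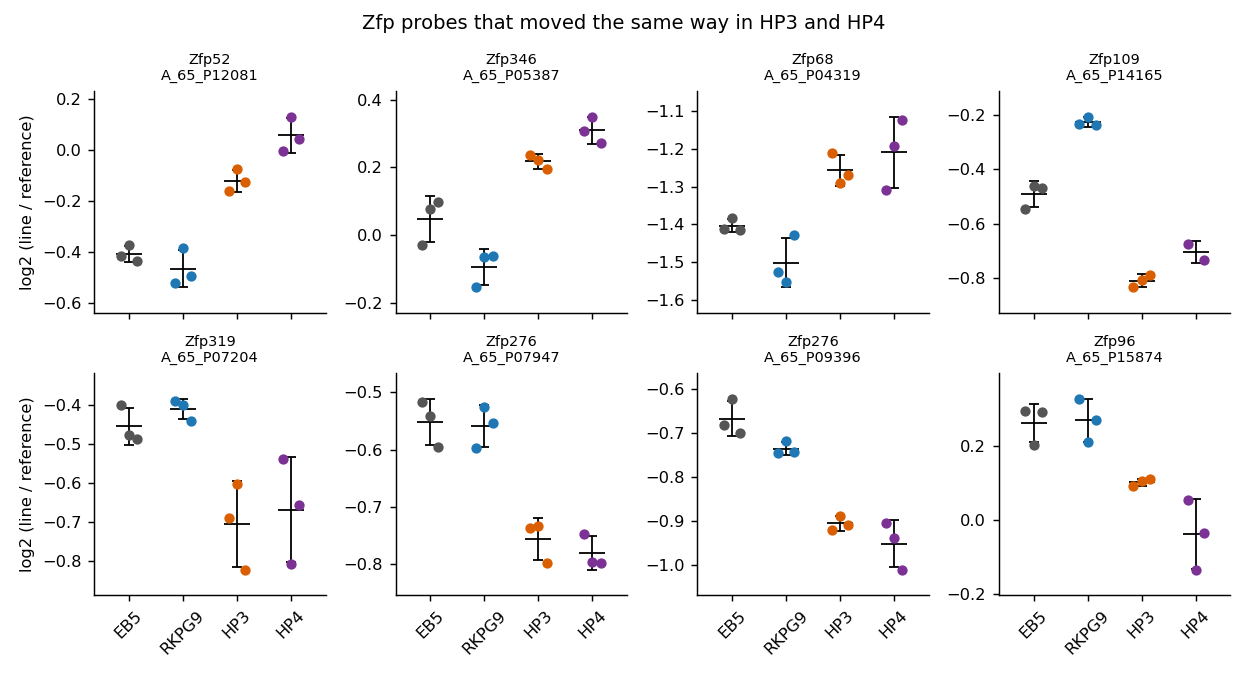
Log2 ratio over the reference on every usable array for 8 Zfp probes called in the same direction in HP3 and HP4 against both RKPG9 and EB5. Zfp148 at A_65_P10512 was also called so (lower) and is not shown. Points are arrays, black bars the mean and SD (3 arrays a line, 2 for Zfp109 in HP4), and each panel has its own scale; Zfp52, Zfp346 and Zfp68 stand higher in the Rex1-/- lines and the other 5 probes lower.

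The remaining genes that fell in both lines, Zfp319 and Zfp276, lie on chromosome 8, as does Zfp42. Zfp319 read -0.39, -0.40 and -0.44 on the RKPG9 arrays, -0.69, -0.60 and -0.82 on those of HP3, and -0.54, -0.81 and -0.66 on those of HP4. It changed by -0.29 ± 0.068 in HP3 (adjusted p = 0.0074, but 0.054 with processed signals) and by -0.26 ± 0.068 in HP4 (adjusted p = 0.0098). Zfp276 at A_65_P07947 read -0.60, -0.53 and -0.55 on the RKPG9 arrays, -0.74, -0.73 and -0.80 on those of HP3, and -0.75, -0.80 and -0.80 on those of HP4. The fall was 0.20 in HP3 (adjusted p = 0.0015) and 0.22 in HP4 (adjusted p = 0.00041). A_65_P09396 gave -0.17 and -0.22, and A_65_P11172 gave -0.11 in HP3 and -0.051 in HP4, where it did not pass. The fall of Zfp319 against EB5, -0.25 in HP3 and -0.21 in HP4, missed the threshold in HP3 without EB5 array 1 (-0.22, adjusted p = 0.057) or HP3 array 3 (-0.19, adjusted p = 0.063). Thus all 4 chromosome 8 probes of the set were lower in HP3 and 3 of 4 in HP4.

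Other chromosome 8 probes moved with them, so the chromosomes were compared, a step chosen after these values were seen. Of 20281 probes, 8451 had a name that matched a RefSeq gene with a chromosome, 426 of them on chromosome 8. Against RKPG9, 62.2% of the chromosome 8 probes were lower in HP3 and 61.7% in HP4, and the median changes were -0.265 and -0.257. On the 19 other chromosomes the share lower ran from 8.88 to 16.1% in HP3 and from 15.6 to 28% in HP4, with medians from -0.01 to 0.032. RKPG9 in turn was higher than EB5 at 57.5% of chromosome 8 probes, with a median of 0.18, where the other chromosomes had medians from -0.098 to -0.035. Between HP4 and HP3 the chromosome 8 median was 0.013, inside the range of the others (-0.022 to 0.025). Against EB5 it was -0.062 in HP3, where the others ran from -0.055 to -0.029, and -0.065 in HP4, where they ran from -0.067 to -0.037. Over the 11 settings run, the chromosome 8 median ran from -0.361 to -0.134 in HP3 and from -0.489 to -0.123 in HP4 against RKPG9, and from 0.089 to 0.299 in RKPG9 against EB5. In RKPG9 against EB5 no probe of Zfp319 (0.044) or Zfp276 (-0.007, -0.069 and 0.05) passed. Against EB5, 3 of the 4 were lower in HP3 and in HP4, beside 33.6% and 39.2% of chromosome 8 probes. The part of chromosome 8 as a whole in their changes was not tested.

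**Figure D4:**
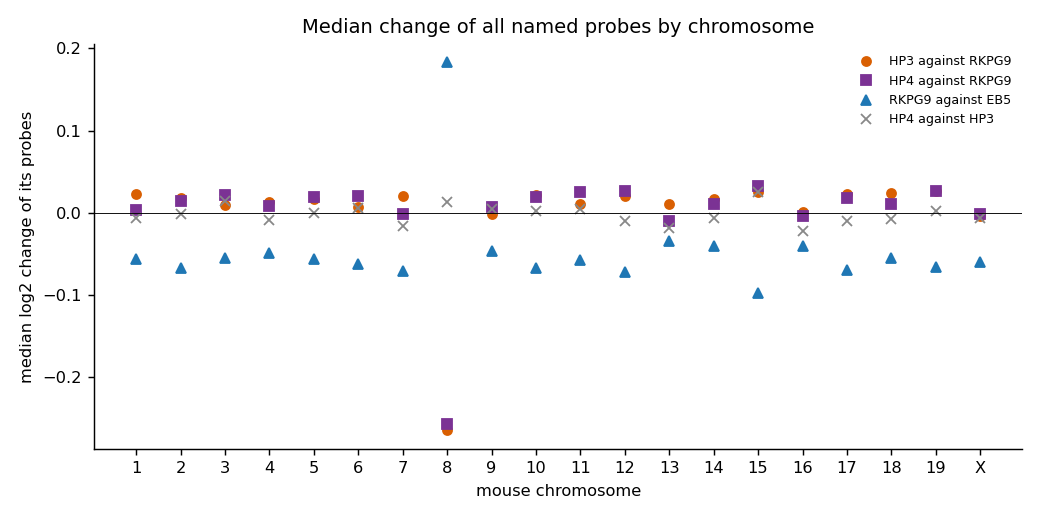
Median log2 change of all array probes with a RefSeq chromosome, by chromosome, in 4 comparisons between lines. Chromosome 8 stands at -0.265 and -0.257 in HP3 and HP4 against RKPG9 and at 0.18 in RKPG9 against EB5, while the other 19 chromosomes lie between -0.098 and 0.032.

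HP4 against HP3 compares 2 clones of the same genotype. Here 6 Zfp probes were higher in HP4 and 13 lower, against 13.7% and 14.7% of all probes. Of probes matched to RefSeq, 14.2 to 24.5% were higher and 14.9 to 21.3% lower by chromosome, leaving out chromosome 8. The Zfp probes had a median of -0.063 beside 0.002 over all probes. With the scanner's processed signals, or with the authors' value table, 4 were higher and 17 lower, beside 12.7% and 18.8% of all probes with the first and 12.4% and 18.6% with the second. Zfp239, Zfp113, Zfp52 and Zfp68 were higher and Zfp2, Zfp57, Zfp292 and Zfp162 lower, by the most among those that passed and whose arrays did not overlap.

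Zfp239 (Mok2), a C2H2 gene that binds DNA and RNA, went opposite ways in the 2 clones. At A_65_P11439 it read -1.04, -1.03 and -1.07 on the RKPG9 arrays, -1.23, -1.22 and -1.17 on those of HP3, and -0.77, -0.83 and -0.79 on those of HP4, without overlap. HP3 was below RKPG9 by 0.16 (-0.16, adjusted p = 0.0081) and HP4 above it by 0.25 (adjusted p = 0.00023). The clones differed by 0.41 ± 0.037 (adjusted p = 4.5e-05), the largest gap of any Zfp probe between HP3 and HP4, and by 0.12 with median centring (adjusted p = 0.038). The other probe, A_65_P19173, was lower in HP4 than in RKPG9 (-0.22, adjusted p = 0.01) and did not differ between the clones past the threshold (-0.086, adjusted p = 0.3). A single direction for Zfp239 in HP4 is therefore not given by these arrays.

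Zfp2, a C2H2 gene, read 0.18, 0.32 and 0.25 in HP3 and -0.18, -0.14 and -0.096 in HP4, with RKPG9 at 0.18, 0.13 and 0.090 and EB5 at -0.091, -0.080 and -0.010. HP4 was lower than HP3 by 0.39 (-0.39 ± 0.044, adjusted p = 0.00014) and lower than RKPG9 by 0.27 (-0.27, adjusted p = 0.00047). Zfp57, the KRAB protein that keeps methylation at imprinted regions, read 0.37, 0.31 and 0.42 on the RKPG9 arrays, 0.47, 0.43 and 0.36 on those of HP3, and 0.064, 0.092 and 0.13 on those of HP4. EB5 was near HP4, at 0.22, 0.12 and 0.19. The gap between the clones was -0.32 ± 0.043 (adjusted p = 0.00034), and did not pass with median centring (-0.14, adjusted p = 0.33) or Cy3 alone (-0.18, adjusted p = 0.57). HP4 was below RKPG9 by -0.27 (adjusted p = 0.00038), which turned to 0.15 with median centring and had adjusted p = 0.052 with the authors' table. HP3 and RKPG9 were above EB5 by 0.24 and 0.19, and HP4 against EB5 did not pass (-0.082, adjusted p = 0.14).

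Zfp296 and Zfp57 were the only 2 measured of 13 listed Zfp genes with a known part in ES cell self-renewal or imprinting. Neither passed in HP3 against RKPG9, both were lower in HP4, and both were higher than EB5 in HP3 and in RKPG9. For Zfp296 the HP4 change of -0.28 (adjusted p = 0.041) missed the threshold without any 1 RKPG9 array, at -0.32, -0.31 and -0.22, or without HP4 array 3, at -0.17. It also missed the threshold with processed signals (-0.12, adjusted p = 0.52), an offset of 0 (-0.13, adjusted p = 0.47) and the authors' table (-0.13, adjusted p = 0.35), and was -0.78 with no background subtraction, -0.75 with median centring and -0.67 with Cy3 alone. Its change from EB5, 0.49 ± 0.12 in HP3 and 0.50 ± 0.11 in RKPG9, rests on 1 EB5 array, and in HP3 it missed the threshold without HP3 array 3 (0.41, adjusted p = 0.073) and in each of the settings processed signals, offset of 0, no background subtraction, median centring and Cy3 alone (0.22 to 0.61). In RKPG9 it missed with processed signals (0.53, adjusted p = 0.069) and an offset of 0 (0.50, adjusted p = 0.074). ES cell markers moved beside them. Of the 8 measured, 5 were lower and 1 higher in HP4 against RKPG9, with Pou5f1 at -0.31 and Nanog at -0.26, and 2 were higher and none lower in HP3. These marker calls were made under the main setting alone, and the alternatives given for Zfp296 were not applied to them. Over all probes 19.1% were lower and 20.9% higher in HP4, and 12.6% higher and 10.1% lower in HP3. All of these are bulk RNA, in which fewer cells of a type and less RNA per cell cannot be told apart. The part of the marker change in the Zfp values was not tested.

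Zfp162 (Sf1) split by probe as Zfp239 did. A_65_P04734 was lower in HP4 than in HP3 by 0.20 (-0.20, adjusted p = 0.0013), whereas A_65_P07858 was higher by 0.12 (adjusted p = 0.015). The arrays behind these values did not overlap at either probe, with HP4 at 0.77, 0.71 and 0.79 for the first and 0.33, 0.31 and 0.33 for the second. Against EB5 too, HP4 was lower at the first (-0.14, adjusted p = 0.0065) and higher at the second (0.16, adjusted p = 0.0021). Zfp292 was lower in HP4 than in HP3 at both of its probes, -0.20 at A_65_P09015 and -0.18 at A_65_P19221, the first of which missed the threshold when any 1 array of either line was left out (-0.22 to -0.19), and Zfp113, a KRAB gene, was higher by 0.18. The Zfp113 value was -0.008 with Cy3 alone and missed the threshold without HP3 array 2 (0.18, adjusted p = 0.054), HP3 array 3 (0.15, adjusted p = 0.085) or HP4 array 1 (0.12, adjusted p = 0.068).

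**Figure D5:**
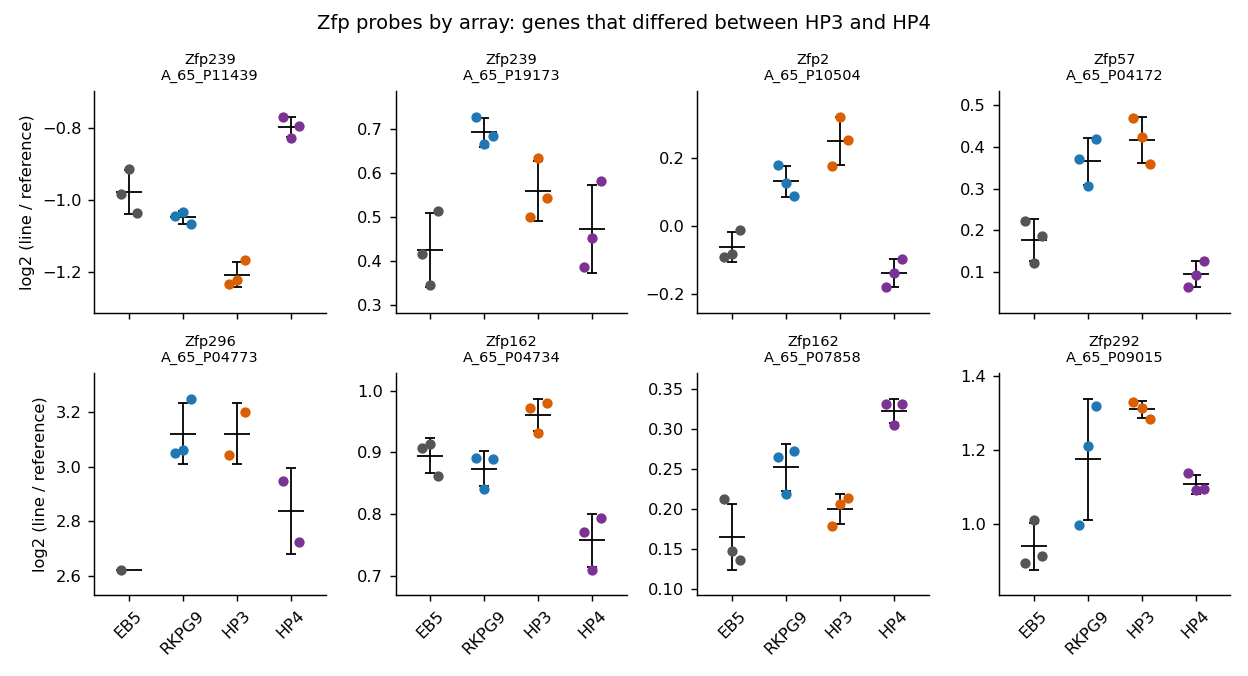
Log2 ratio over the reference on every usable array for 8 probes of Zfp239, Zfp2, Zfp57, Zfp296, Zfp162 and Zfp292. Points are arrays and black bars the mean and SD, with 1 usable array for Zfp296 in EB5 and 2 in HP3 and HP4; HP4 stands apart from HP3 at both Zfp162 probes, but in opposite directions.

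Against EB5, the wild-type line, HP3 had 14 Zfp probes higher and 14 lower, beside 11.4% and 19.1% of all probes. HP4 had 10 higher and 17 lower, beside 18.4% and 26.4%, and RKPG9 had 11 higher and 9 lower, beside 12.5% and 21.6%. Of probes matched to RefSeq, by chromosome and leaving out chromosome 8, 9.19 to 14% were higher and 19.9 to 33.7% lower in HP3. In HP4 these shares were 14.7 to 18.9% and 30.3 to 37.5%, and in RKPG9 8.02 to 19.2% and 27.4 to 38%. The median changes of the Zfp probes were 0.052, -0.034 and -0.007, beside -0.016, -0.019 and -0.02 over all probes. These splits moved with the scaling. In HP3 they became 2 higher and 14 lower with median centring, beside 9.69% and 27% of all probes, and 15 and 6 with Cy3 alone, beside 13.6% and 13.5%. For HP4 they were 9 and 32 with median centring, beside 36.5% and 43%, and 16 and 10 with Cy3 alone, beside 18.6% and 19.1%. For RKPG9 they were 4 and 10 with median centring, beside 9.26% and 20.9%, and 8 and 10 with an offset of 0, beside 11.4% and 17.8%.

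A group of 5 probes was lower than EB5 in all 3 mutant lines, and no probe was higher in all 3, by limma at adjusted p under 0.05. Over all probes 9.37% were lower and 3.33% higher in all 3, against 8.93% and 0% of the Zfp probes. Zfp103 (Rnf103) led them. EB5 arrays read -0.76, -0.67 and -0.74, while those of RKPG9 read -1.07, -1.02 and -1.14. HP3 gave -1.18, -1.12 and -1.19, and HP4 gave -1.12, -1.21 and -1.32. The changes were -0.36 in RKPG9 (adjusted p = 0.00021), -0.44 in HP3 (adjusted p = 7.3e-05) and -0.50 in HP4 (adjusted p = 2.1e-05), without overlap. HP4 was also below RKPG9 (-0.14, with an adjusted p that rounds to 0.05 and lay just inside the threshold), with overlapping arrays, and HP3 did not pass against RKPG9 or HP4. Zfp275, a C2H2 gene of the X chromosome, changed by -0.26, -0.29 and -0.41 in the same order. Zfp261 (Zmym3), Zfp288 (Zbtb20) at A_65_P03464 and Zfp297 (Zbtb22) made up the rest. The separate session of EB5 applies to all of them.

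A different pattern was lower in RKPG9 than in EB5 and part of the way back in HP3 and HP4. Zfp238 (Zbtb18), a BTB repressor known in neuronal development, stood at -0.77, -0.66 and -0.74 on the EB5 arrays and at -1.11, -1.13 and -1.13 on those of RKPG9. HP3 arrays gave -0.77, -0.92 and -0.82, and HP4 arrays -0.89, -0.89 and -1.04. RKPG9 was below EB5 by 0.40 (-0.40, adjusted p = 8.8e-05), and HP3 and HP4 were above RKPG9 by 0.28 (adjusted p = 0.0014) and 0.18 (adjusted p = 0.015). It was the only 1 measured of 10 listed developmental C2H2 genes. Zfp36 was also lowest in RKPG9, but its mean in HP4 (-0.912) lay above that in HP3 (-0.965). Its change was -0.34 in RKPG9 against EB5 (-0.019 and not passed with Cy3 alone). Against RKPG9 it was 0.20 in HP3 (adjusted p = 0.0078) and 0.25 in HP4 (adjusted p = 0.001). The HP4 value was 0.068 with processed signals (adjusted p = 0.32) and -0.008 with Cy3 alone. Mesenchymal markers were read beside them, with Vim at -3.54, -5.04, -4.57 and -4.19 for EB5, RKPG9, HP3 and HP4. All 4 measured of 10 listed (Col1a2, Vim, Acta2 and Thbs1) were lower in RKPG9 than in EB5, 1 was higher in HP3 and 3 in HP4 than in RKPG9, and all 4 were well above background on all arrays. Each was read at 1 probe, and the Thbs1 fall in RKPG9 at A_65_P13588 was only -0.098 (limma adjusted p = 0.034). Of 7 endoderm markers measured, 2 were higher and 2 lower in HP4 against RKPG9 and 1 was lower in HP3. The lower genes in HP4 were Gata4, not well above background on any RKPG9, HP3 or HP4 array, and Foxa2, above it in RKPG9 and on no HP3 or HP4 array. Of 5 trophoblast markers, 1 was higher in HP4 than in RKPG9 and 2 were lower in each mutant line than in EB5. Over all probes, 12.6% were higher and 10.1% lower in HP3 against RKPG9, and 20.9% and 19.1% in HP4. Lower than EB5 were 21.6% of all probes in RKPG9, 19.1% in HP3 and 26.4% in HP4. The part of mesenchymal, endoderm or trophoblast cells in the Zfp values was not tested. Among the 11 probes higher in RKPG9 than in EB5 were those of Zfp296, Zfp239 at A_65_P19173 (0.27), Zfp109 (0.27), Zfp148 at A_65_P10364 (0.26) and Zfp106, an RNA-binding gene (0.26).

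Grouped by known domain, the KRAB or SCAN genes (13 genes, 16 probes) had 5 probes higher and 2 lower in HP3 against RKPG9, and 5 and 4 in HP4. The other C2H2 genes (14 genes, 20 probes) had 2 higher and 7 lower in HP3, and 2 and 9 in HP4. Of these lower probes, 4 in HP3 and 3 in HP4 were the chromosome 8 probes of Zfp276 and Zfp319. The counts are of probes, so a gene such as Zfp276 enters more than once. The BTB genes (5 genes, 7 probes) had 1 higher and none lower in HP3, 2 and 0 in HP4, and no call between HP4 and HP3. RNA-binding genes (5 genes, 6 probes) had 2 higher and none lower in HP3 and 2 and 1 in HP4. The 3 RING or AN1 genes fell at 2 probes in HP4 and at none in HP3. Over all probes the shares were 12.6% higher and 10.1% lower in HP3 and 20.9% and 19.1% in HP4. No difference between these groups was tested.

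The partners through which KRAB proteins silence chromatin were read from a list of 22, of which 18 were measured. Yy1, which Rex1 resembles, is counted among the 18 though it is not one of these partners. In HP3 against RKPG9 6 were higher and 1 lower, in HP4 5 and 4, and in HP4 against HP3 0 and 6. Of all probes, in the same order, 12.6% and 10.1%, 20.9% and 19.1%, and 13.7% and 14.7% were higher and lower. Those that moved most were de novo DNA methyltransferases. Dnmt3b read 3.88 in RKPG9, 4.97 in HP3, 4.98 in HP4 and 4.61 in EB5, a rise of 1.10 in HP3 (adjusted p = 8e-06) and 1.11 in HP4 (adjusted p = 5.1e-06) over RKPG9. Dnmt3a rose by 0.36 (adjusted p = 2.9e-05) and 0.33 (adjusted p = 4.4e-05), and the HP1 genes Cbx1 and Cbx5 rose in both lines by 0.20 to 0.35 over RKPG9. Against EB5 the directions were mixed. Of the 18, 3 were higher and 4 lower in HP3, and 2 and 6 in HP4. Of all probes, 11.4% and 19.1%, and 18.4% and 26.4%, were so called. Dnmt3b was higher in HP3 (0.37) and HP4 (0.38) and lower in RKPG9 (-0.73). Lower in HP3, HP4 and RKPG9 were Atrx (-0.45, -0.525 and -0.49), Hdac1 (-0.38, -0.43 and -0.26) and Cbx5 (-0.23, -0.15 and -0.44). Dnmt3a was lower in RKPG9 (-0.31) and did not pass in HP3 (0.051) or HP4 (0.015). Cbx3, also an HP1 gene, did not pass against RKPG9 (-0.07 in HP3, -0.051 in HP4). Trim28, the corepressor itself, read 1.88, 1.75, 1.89 and 1.69 in EB5, RKPG9, HP3 and HP4. It rose in HP3 by 0.14 (adjusted p = 0.046) and in HP4 did not pass (-0.06, adjusted p = 0.31). Setdb1 fell in HP4 by 0.28 and Uhrf1, which brings Dnmt1 to replicated DNA, fell in both lines, by 0.15 and by 0.25. Yy1 itself did not pass in any of the 6 comparisons, with changes from -0.044 to 0.03.

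Because Rex1 resembles Yy1, the promoters of the Zfp genes were searched for the Yy1 motif core GCCATNTT, and its reverse complement AANATGGC. The window was RefSeq's 250 bases before to 50 after the start of a gene (GRCm38.p6), and 37 of the 43 genes had such a window. The motif was found in 4 (10.8%), against 6.96% of 27025 genes. The 4 windows are shown because they are all the Zfp promoters that hold it, with the motif in capitals and each strand as transcribed. The windows are Zfp297 (Zbtb22) at chr17:33915926-33916225 on the plus strand, Zfp292 at chr4:34882899-34883198 on the minus strand, Zfp318 at chr17:46383516-46383815 on the plus strand and Zfp68 at chr5:138619694-138619993 on the minus strand.
Zfp297: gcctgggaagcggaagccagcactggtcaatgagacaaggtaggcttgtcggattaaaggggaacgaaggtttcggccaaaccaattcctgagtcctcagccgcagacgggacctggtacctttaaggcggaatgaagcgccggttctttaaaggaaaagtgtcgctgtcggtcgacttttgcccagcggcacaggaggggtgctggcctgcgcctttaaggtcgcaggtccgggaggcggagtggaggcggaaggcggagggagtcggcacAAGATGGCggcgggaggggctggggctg
Zfp292: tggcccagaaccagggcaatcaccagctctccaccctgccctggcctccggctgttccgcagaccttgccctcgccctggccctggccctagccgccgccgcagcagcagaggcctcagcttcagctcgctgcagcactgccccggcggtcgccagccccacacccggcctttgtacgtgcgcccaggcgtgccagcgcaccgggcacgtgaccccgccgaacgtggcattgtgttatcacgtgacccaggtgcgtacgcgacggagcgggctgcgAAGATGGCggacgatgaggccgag
Zfp318: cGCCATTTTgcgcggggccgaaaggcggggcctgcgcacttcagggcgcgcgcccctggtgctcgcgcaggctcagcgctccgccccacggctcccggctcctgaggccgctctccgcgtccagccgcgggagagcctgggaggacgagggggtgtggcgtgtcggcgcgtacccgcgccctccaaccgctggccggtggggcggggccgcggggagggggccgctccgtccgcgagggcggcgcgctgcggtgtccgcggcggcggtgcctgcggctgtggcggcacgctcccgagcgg
Zfp68: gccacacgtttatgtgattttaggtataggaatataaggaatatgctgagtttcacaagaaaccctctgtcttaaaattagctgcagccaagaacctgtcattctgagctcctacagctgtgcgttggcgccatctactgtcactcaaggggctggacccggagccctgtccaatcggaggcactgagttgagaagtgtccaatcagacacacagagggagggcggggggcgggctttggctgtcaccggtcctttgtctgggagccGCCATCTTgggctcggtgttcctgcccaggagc

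A match of these letters is a description of the sequence and no evidence of binding. In Zfp297, Zfp292 and Zfp68 the match lay just after the start of the gene, and in Zfp318 at the upstream end of the window. The 4 genes have 7 probes. Against RKPG9, 2 of these were higher and none lower in HP3 (Zfp68 at A_65_P04319 and Zfp318, by 0.24 and 0.15), and 2 higher and none lower in HP4 (a pair of Zfp68 probes). The 33 genes without a match had 7 probes higher and 7 lower in HP3 and 7 and 16 in HP4, of 41 probes. Against EB5, the 7 probes gave 4 higher and 1 lower in HP3 and 1 and 1 in HP4. Over all probes, 12.6% were higher and 10.1% lower in HP3 against RKPG9, and 20.9% and 19.1% in HP4. The shares against EB5 were 11.4% and 19.1% in HP3, and 18.4% and 26.4% in HP4. No difference between the groups was tested.

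Across the 6 comparisons, 9 probes passed nowhere. They were those of Zfp101, Zfp110, Zfp161 (Zbtb14), Zfp263 and Zfp46, and 1 probe each of Zfp198, Zfp278, Zfp288 and Zfp68. Zfp198 at A_65_P02362 spread widely in HP4, with arrays at 0.38, 1.07 and 0.52, while its A_65_P02427 rose in HP3 against RKPG9 by 0.21 (adjusted p = 0.034).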

How the data were processed

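RNA of 4 mouse ES cell lines was hybridised against a universal mouse reference on 12 NIA Mouse 22K Agilent arrays. The authors scanned them and ran Agilent Feature Extraction 7.5.1, and deposited spot intensity values and log10 ratios for each array, with a table of log10 values per probe. That table matched the negative of the scanner's log ratio plus a level per probe within a log10 tolerance of 0.01 at most probes, with column medians near 2.88. No genome build was given in the sources used here.

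From the deposited mean and local background intensity, normexp correction (offset 50) and loess within each array gave log2 ratios of Cy3 over Cy5 in limma 3.58.1 (R 4.3.3). Control spots had weight 0 in loess and outlier spots were left out. All 12 arrays entered 1 fit (8 residual degrees of freedom, 3.42 prior), with 6 contrasts and Benjamini-Hochberg adjustment over all gene probes. A call is adjusted p under 0.05. The script was tested on simulated data. Precision is limited by the number of arrays.

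Named probes are those past both thresholds, the 4 largest rises and 4 largest falls per comparison that passed the test without overlapping arrays and with Cy3 well above background in at least 1 of the 2 lines, the 8 highest and 4 lowest genes against the reference among those with Cy3 well above background on all 12 arrays, the measured genes of the short lists, and all other probes of these genes. Further probes named were chosen after their values were seen. Members and lists were chosen with earlier results of these data known. Marker and KRAB partner genes were read at their brightest Cy3 probe alone, and under the main setting alone. The domain groups are textbook roles, since the planned grouping by protein motif was not made here. Symbols, chromosomes and promoters come from RefSeq (GRCm38.p6). Alternatives were median centring, Cy3 alone, an offset of 0, the scanner's processed signals, the deposited value table, raw signals with no background taken off, outliers kept, dim probes left out, a fit of only the lines compared, a replicate block and each array left out.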

Additional observations from a re-analysis of the deposited data

Results flagged for a closer look

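The Zfp probes behind the 48 named changes were searched for those where HP3 and HP4 lay on opposite sides of a control line. At 6 of them the 2 lines also differed from each other by limma's test of that difference. Zfp probes without a named change were not searched, and some met the same rule. For example, Zfp292 at A_65_P19221 had 0.093 in HP3 and -0.086 in HP4 against RKPG9 (adjusted p = 0.0038 between HP4 and HP3). The difference of HP4 from HP3 was 0.41 at Zfp239 (A_65_P11439, adjusted p = 4.5e-05), with HP3 at -0.16 and HP4 at 0.25 against RKPG9 and at -0.23 and 0.18 against EB5. At Zfp2 it was -0.387 (adjusted p = 0.00014), with 0.12 and -0.27 against RKPG9 and 0.31 and -0.077 against EB5. At Zfp57 it was -0.323 (adjusted p = 0.00034), with 0.052 and -0.27 against RKPG9 and 0.24 and -0.082 against EB5. Zfp162 (A_65_P04734) gave -0.203 (adjusted p = 0.0013), with 0.087 and -0.12 against RKPG9 and 0.066 and -0.14 against EB5. Zfp292 (A_65_P09015) gave -0.203 (adjusted p = 0.041), with 0.14 and -0.067 against RKPG9 alone. Zfp68 (A_65_P12223) gave 0.15 (adjusted p = 0.034), with -0.008 and 0.14 against RKPG9 and -0.043 and 0.11 against EB5, and missed the threshold with processed signals (0.098, adjusted p = 0.32), an offset of 0, median centring (0.025, adjusted p = 0.65), Cy3 alone, the authors' table and the fit of those lines alone (adjusted p = 0.053), and without any 1 HP3 array or HP4 array 1 or 3. Of these, Zfp239 was past the threshold against both controls in both lines.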

How the results depend on the processing

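Of 48 named changes, 14 passed in the same direction in every alternative, among them Zfp52 and Zfp109 in HP3 and HP4 against RKPG9 and Zfp103 in the 3 mutant lines against EB5. Of the rest, 10 reversed in some alternative and 8 lost the threshold without 1 array. These groups overlap, since Zfp52 and Zfp113 in HP4 against HP3 did both. Of 766 values over the named changes and alternatives, 83 kept the direction but did not pass and 10 were reversed. The cause was not tested.

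With median centring, the counts were 7 higher in HP3 against RKPG9, 28 lower in HP4 against RKPG9, 26 lower in HP4 against HP3, 2 higher in HP3 against EB5, 32 lower in HP4 against EB5 and 4 higher in RKPG9 against EB5. Of all probes 5.87%, 37.9%, 36.4%, 9.69%, 43% and 9.26% were called in those directions. Cy3 alone gave 1 higher and 2 lower in HP3 against RKPG9, 3 and 4 in HP4 against RKPG9, 2 and 3 in HP4 against HP3, 6 lower in HP3 against EB5, and 16 and 10 in HP4 against EB5, beside 4.94% and 4.25%, 11% and 9.21%, 3.12% and 3.47%, 13.5%, and 18.6% and 19.1% of all probes. For HP4 against HP3, no background subtraction gave 12 higher, and a fit of those lines alone 3 higher and 7 lower, beside 17.5%, and 10.7% and 11.1%.

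Reversed with median centring were Zfp346 in HP4 against RKPG9 (-0.035) and EB5 (-0.22), Zfp57 in HP4 against RKPG9 (0.15), Zfp52 in HP4 against HP3 (-0.057) and Zfp142 in HP4 against EB5 (-0.12). Reversed with Cy3 alone were Zfp36 in HP4 against RKPG9 (-0.008), Zfp113 in HP4 against HP3 (-0.008) and EB5 (-0.37) and Zfp96 in HP4 against EB5 (0.030). With an offset of 0, Zfp68 reversed in HP4 against RKPG9 (-0.062).

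Without 1 array, higher and lower counts ran from 7 to 13 and 6 to 8 in HP3 against RKPG9, 8 to 10 and 14 to 17 in HP4 against RKPG9, 3 to 5 and 5 to 11 in HP4 against HP3, 8 to 11 and 10 to 12 in HP3 against EB5, 8 to 12 and 14 to 17 in HP4 against EB5, and 7 to 10 and 8 to 10 in RKPG9 against EB5. Of all probes, 9.93 to 11.7% were then higher and 8.13 to 9.13% lower in HP3 against RKPG9. For HP4 the shares were 17.9 to 19.1% and 16 to 17.8% against RKPG9, and 10 to 12.3% and 10.6 to 13% against HP3. Against EB5 they were 8.77 to 9.63% and 15.6 to 16.3% in HP3, and 14.7 to 17% and 22.5 to 25.3% in HP4. For RKPG9 against EB5 they were 10 to 11.3% and 18 to 19.5%. The lowest counts came without RKPG9 array 1 or HP3 array 2 (7 higher) and RKPG9 array 3 (6 lower) in HP3 against RKPG9, and without HP3 array 2 (8 higher) in HP3 against EB5. Without EB5 array 3, RKPG9 against EB5 had 7 higher. In HP4 against HP3, 3 were higher without any 1 HP3 array or HP4 array 1, and 5 and 6 lower without HP3 array 2 and array 3.

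Deviations of arrays of the same number from their line means had correlations from -0.18 to 0.19. These values cannot show whether such arrays shared a day or a batch, and the main fit used no pairing. With a replicate block the counts were 12 and 8, 12 and 16, 6 and 14, 15 and 14, 10 and 17, and 11 and 10 in the order above, and Zfp296 in HP4 against RKPG9 was lost (-0.31). Over all probes the shares were 12.7% and 10%, 20.8% and 19.1%, 13.7% and 14.7%, 11.4% and 18.9%, 18.5% and 26.5%, and 12.5% and 21.6%.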
